A study of Mus musculus with 64 samples.

Results

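The genes described here are 10 genes of the glucocorticoid system. Nr3c1, Nr3c2, Fkbp5, Sgk1, Tsc22d3, Pdk4, Zbtb16, Sult1a1, Cdkn1a and Mt2 were taken by symbol from the gene count tables of mouse striatum. All 10 of 10 were among the 23420 genes listed, and all 10 were among the 16113 genes with enough reads to be tested. The samples were striatum punches of 16 F2 mice from a cross of C57BL/6NJ with C57BL/6J, selected as homozygous at a locus that the labels do not name. Of these, 8 carried the C57BL/6NJ allele on both chromosomes (N/N, labelled mutant and binge-prone) and 8 the C57BL/6J allele (J/J, labelled wild-type and binge-resistant). By the labels of the samples each genotype held 5 females and 3 males, whereas the series description gives equal numbers of the sexes. All mice were 69 to 100 days old, and all were killed on day 24 directly after 5 min on the elevated plus maze, an anxiety test with open and walled arms. Every group had been through the maze, so these samples hold levels after the test and no response to it. In an F2 cross the rest of the genome segregates as well, and the mice of one genotype are not otherwise genetically alike. Each mouse was sequenced in 4 runs, which were added together, and the mouse is the unit of replication throughout.

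Corticosterone, the main glucocorticoid of mice, is released from the adrenal cortex under stress and enters the brain. It binds the mineralocorticoid receptor (Nr3c2) at low and the glucocorticoid receptor (Nr3c1) at higher concentrations. The receptors are held ready by chaperones in the cytoplasm, move to the nucleus when the hormone binds, and act on genes with glucocorticoid response elements, inverted repeats of a short motif. Fkbp5 encodes a co-chaperone that lowers the receptor's affinity for the hormone and is itself induced by it. Sgk1 (a kinase that regulates ion channels and transporters), Tsc22d3 (the leucine zipper protein GILZ), Pdk4 (a kinase that restrains pyruvate dehydrogenase), Zbtb16 (a zinc finger transcription factor), Cdkn1a (the cell cycle inhibitor p21) and Mt2 (a metal-binding metallothionein) are known as glucocorticoid-induced genes. Sult1a1 encodes a sulfotransferase of phenols that has also been found induced by glucocorticoids in brain.

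Promoter sequence is shown for the members that carry the best matches to the elements through which these genes are known to be controlled. RefSeq windows (GRCm38.p6) reached from 250 bases before to 50 bases after a transcript start and were at hand for 8 of the 10 members, 16 windows in all. The glucocorticoid response element was searched as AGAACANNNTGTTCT, which reads the same on both strands and has 12 fixed positions. An exact match stood in 3 of 32851 windows of the whole table (0.009%), and a match with at most 2 mismatches in 606 (1.845%). Sgk1 held the exact match, beginning at position -189 from the start of its window 5. The 250 bases before that start, chr10:21993640-21993889 on the plus strand, lie in an intron of longer Sgk1 transcripts in GENCODE vM21. Capitals mark the 12 fixed positions of the match.
Sgk1 start 5: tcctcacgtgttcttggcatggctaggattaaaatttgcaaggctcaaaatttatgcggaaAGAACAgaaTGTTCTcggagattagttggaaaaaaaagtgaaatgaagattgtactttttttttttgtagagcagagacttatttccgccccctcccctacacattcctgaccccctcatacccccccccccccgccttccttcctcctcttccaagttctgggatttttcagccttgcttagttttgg

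For comparison, every member window with at most 3 mismatches is set below by its closest site, together with the closest site of Tsc22d3 and of Pdk4, with the positions that match the element in capitals. Sult1a1 had a match with 2 mismatches at position -34 (minus strand, window chr7:126676369-126676668), and a second Sgk1 start had one with 2 mismatches at position -183 (plus strand, window chr10:21985854-21986153). The first Sgk1 start had one with 3 mismatches at position -204 (plus strand, window chr10:21881934-21882233), as close as 14.493% of all windows come. The best matches of Tsc22d3 and Pdk4, given on the strand of each gene, had 4 mismatches, which 57.045% of all windows reach or better. Those of Nr3c2, Cdkn1a and Mt2 had 5 mismatches, which 94.006% of all windows reach or better, and that of Fkbp5 had 6. These shares are per window, and Sgk1 had 6 windows. A match to these letters is a description of the window and not a measured binding site.
Sgk1 start 5, 0 mismatches: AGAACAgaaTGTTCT
Sgk1 start 3, 2 mismatches: AGAAgAttcTGaTCT
Sult1a1, 2 mismatches: AGAACAgccaGTcCT
Sgk1 start 1, 3 mismatches: gGAAtccgtTGTTCT
Tsc22d3 start 2, 4 mismatches: cGAgCAgttTtTaCT
Pdk4, 4 mismatches: gGAgCccaaaGTTCT

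Mt2 was searched for the metal response element, as TGCACNC and TGCGCNC on both strands, because metals control this gene besides glucocorticoids. Its window held 4 matches, 3 of them in the 250 bases before the start, and 0.517% of all windows held at least 4. Those 250 bases, chr8:94172368-94172617 on the plus strand, lie within an exon of the gene model Gm45774 on the opposite strand in GENCODE vM21. Capitals mark the matches.
Mt2 start: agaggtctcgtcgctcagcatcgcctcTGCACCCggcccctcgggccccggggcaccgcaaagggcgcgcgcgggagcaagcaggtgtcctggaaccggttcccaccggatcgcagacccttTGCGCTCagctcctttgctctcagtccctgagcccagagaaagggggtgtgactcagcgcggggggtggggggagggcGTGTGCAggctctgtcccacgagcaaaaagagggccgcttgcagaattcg

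Expression of the members was set side by side per transcript length. Levels were computed as RPKM, reads scaled by annotated exon length and by library size. Mt2 stood highest at 110 ± 18.6 RPKM (SD, n = 16), followed by Nr3c1 at 18.2 ± 1.003, Sgk1 at 15.5 ± 4.47 and Tsc22d3 at 12.4 ± 2.17 RPKM. The ranges of Nr3c1, Sgk1 and Tsc22d3 over the mice overlapped. Sult1a1 (5.19 ± 1.07 RPKM), Pdk4 (4.74 ± 0.448), Nr3c2 (4.72 ± 0.471), Fkbp5 (4.47 ± 0.389) and Cdkn1a (4.41 ± 0.883) lay within the spread of one another, and Zbtb16 was lowest at 2.48 ± 0.468 RPKM. The glucocorticoid receptor was thus listed at a higher level per length than the mineralocorticoid receptor in every mouse, 15.8 to 19.6 against 3.56 to 5.48 RPKM. The members lie on 8 chromosomes, among them Sgk1 at chr10:21882184-21999903 (plus strand), Tsc22d3 at chrX:140539528-140600659 (minus), Pdk4 at chr6:5483351-5496309 (minus), Fkbp5 at chr17:28399094-28517527 (minus) and Mt2 at chr8:94172664-94173568 (plus), all protein-coding in GENCODE vM21 (mm10). Within a gene, levels are given below as CPM, reads scaled by TMM-adjusted library size and not by length.

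**Figure D1:**
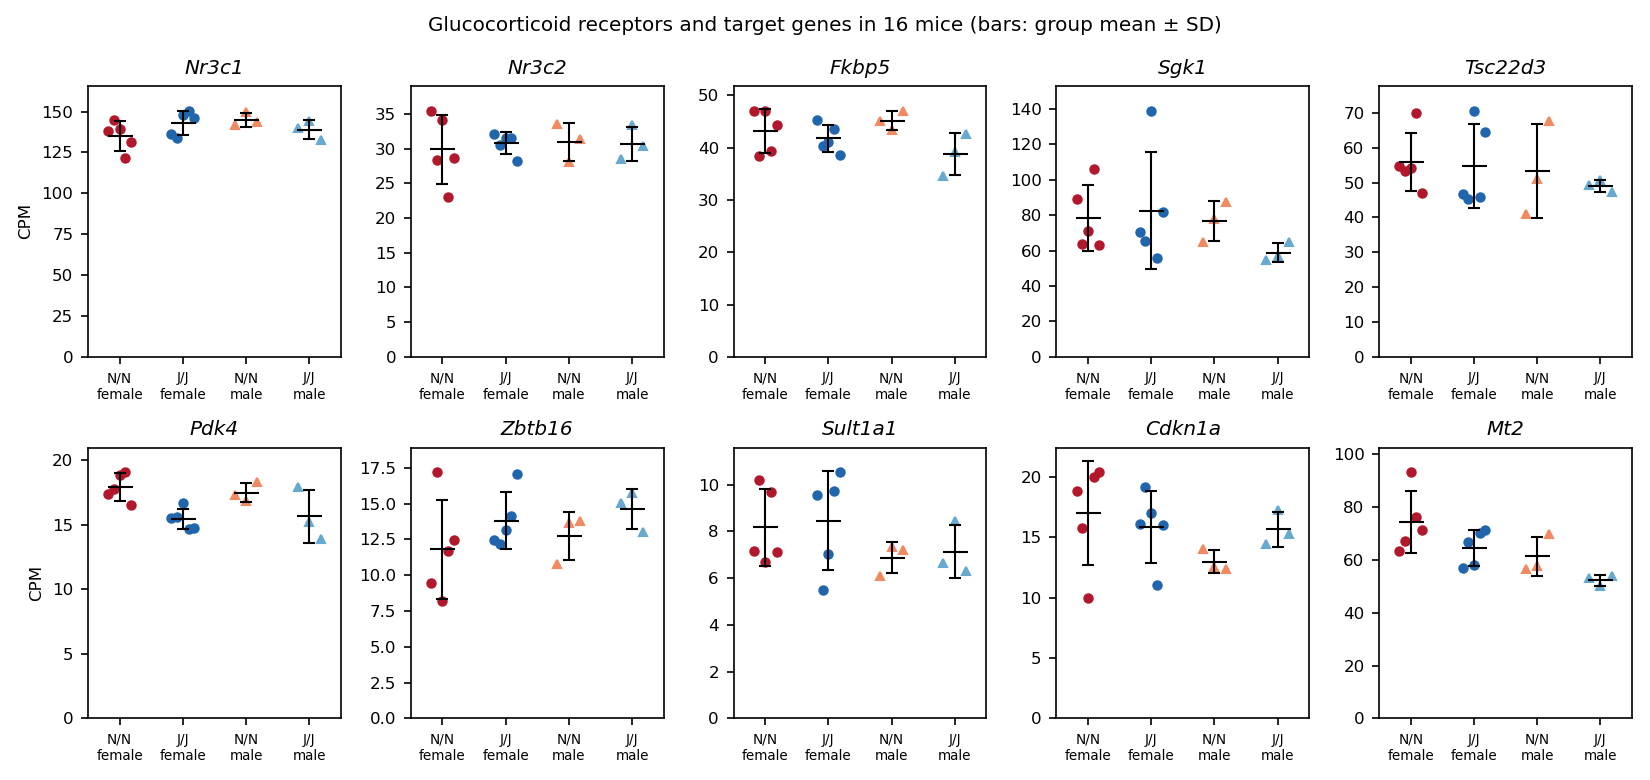
CPM (vertical axis, from 0) of the 10 members in each of the 16 mice by genotype and sex, 1 point a mouse, with the group mean and SD. Sgk1 ranges from 54.6 to 139 CPM with overlapping groups, Nr3c1 stays between 121.4 and 150.6 CPM, and most N/N mice have more Pdk4 than most J/J mice.

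The members differed widely in how much they varied between mice. For Sgk1 the values ran from 54.6 to 139 CPM, a 2.55-fold range, and the biological coefficient of variation, the mouse-to-mouse spread beyond counting error, was 24.4%. Genes of the same abundance had 8.64% by the fitted trend, and the ratio of both numbers placed Sgk1 at percentile 99.04 of the tested genes. Tsc22d3 (16.3% against a trend of 8.72%, percentile 95.4) and Cdkn1a (18.8% against 10.2%, percentile 95.2) also varied more than most genes of their abundance. Zbtb16 had 16.9% (percentile 92.6), Sult1a1 17.3% (89.9), Mt2 10.6% (84.9) and Nr3c2 10.02% (79.6).

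The other members were steadier. Fkbp5 varied by 8.27% (percentile 65.8), and Nr3c1, from 121.4 to 150.6 CPM, by 6.67% (percentile 39.0). Pdk4 varied by 7.03% (percentile 27.9). The number of reads behind each member set how far such spread can be read. Sgk1 had between 1730 and 5110 reads per mouse, and its deviations in one set of runs and in the remaining runs correlated at r = 0.987. For Pdk4, with 415 to 911 reads, that correlation was 0.503, and counting error amounted to 4.32% of the mean in a total coefficient of variation of 9.44%.

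The first comparison asked whether the genotype at the selected locus went with other levels of these genes. No gene differed between N/N and J/J at an adjusted p under 0.05 in edgeR's quasi-likelihood test with sex in the model (0 of 16113 genes, 0.00%), nor with DESeq2 or limma-voom. At an unadjusted p under 0.05 edgeR gave 1095 genes (6.80%), DESeq2 1090 and limma-voom 1106. Among the members 2 of 10 had an unadjusted p under 0.05, Pdk4 and Mt2, both with higher means in N/N, where 3.42% of all tested genes lie in that direction. Log2 differences lay above 0 for 5 members and below it for 5, and the median over the members was 0.02, against 0.00 (0.0017) over all tested genes.

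The receptors are the proteins that bind the hormone. Nr3c1 had a lowest, median and highest value of 121.4, 140.5 and 149.9 CPM in the 8 N/N mice and of 132.6, 142.0 and 150.6 CPM in the 8 J/J mice. The ranges overlapped almost wholly, with a ratio of N/N to J/J of 0.982 (95% confidence interval 0.921 to 1.05, adjusted p = 0.894). Nr3c2 ran from 23.1 over 30.0 to 35.5 CPM in N/N and from 28.3 over 31.1 to 33.4 CPM in J/J. Both the lowest and the highest mouse were N/N, and the ratio was 0.984 (0.886 to 1.09, adjusted p = 0.947). Nr3c2 is overlapped on the other strand by Gm10649, and how strand was set in counting is not given in the sources used here. Fkbp5, Sult1a1, Cdkn1a and Mt2 also overlap gene models on the other strand in GENCODE vM21, and without that setting reads of the strands cannot be told apart.

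Fkbp5 ran from 38.4 over 44.7 to 47.1 CPM in N/N and from 34.6 over 40.7 to 45.2 CPM in J/J. Above all J/J mice lay 3 N/N mice, and below all N/N mice 1 J/J mouse, with the rest overlapping. The mean was 43.9 ± 3.45 CPM in N/N against 40.7 ± 3.32 CPM in J/J (SD, n = 8 each), a fitted difference of 8.04% (log2 difference 0.11, SE 0.057, adjusted p = 0.712). In the males alone the 3 N/N values, 43.4, 45.2 and 47.0 CPM, were above the 3 J/J values, 34.6, 39.1 and 42.7 CPM. The log2 difference there was 0.22 (unadjusted p = 0.0261, adjusted p = 0.406), and in the females it was 0.05 (adjusted p = 0.981). The male value was 0.09 (adjusted p = 0.9997) with the cortical marker level in the model and 0.14 (adjusted p = 0.708) without J/J male mouse 3, and the unadjusted p was also above 0.05 without N/N male mouse 5 or mouse 12. In males 11.3% and in females 4.41% of all tested genes had an unadjusted p under 0.05 for genotype. The difference between the sexes in the Fkbp5 effect, tested as an interaction, was -0.17 (SE 0.114, adjusted p = 0.702).

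Pdk4 was the member with the smallest p for genotype, rank 26 of 16113. Its lowest, median and highest values were 16.5, 17.6 and 19.1 CPM in N/N and 13.9, 15.4 and 17.9 CPM in J/J. All 8 N/N mice were above the J/J median and 6 J/J mice were below the lowest N/N mouse, while J/J male mouse 3 reached 17.9 CPM. The means were 17.8 ± 0.930 and 15.5 ± 1.26 CPM (SD, n = 8 each), a ratio of 1.14 (1.06 to 1.23, log2 difference 0.19, SE 0.052). The unadjusted edgeR p was 0.00163 and the adjusted p 0.712, so the difference did not pass the test. The females gave a log2 difference of 0.21 (adjusted p = 0.960) and the males 0.16 (adjusted p = 0.502).

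Mt2 ran from 56.6 over 68.5 to 93.3 CPM in N/N and from 50.0 over 57.5 to 71.3 CPM in J/J. The ranges overlapped, with 3 N/N mice above all J/J mice and 3 J/J mice below all N/N mice. The means were 69.5 ± 11.7 and 60.05 ± 8.28 CPM (SD, n = 8 each), a ratio of 1.16 (1.04 to 1.29, log2 difference 0.21, SE 0.074, unadjusted p = 0.0108, adjusted p = 0.712). Its relative Mt1 lies beside it on chromosome 8 and is close in sequence, and reads that aligned to both would stay out as not unique. Mt1 had 131 ± 17.0 CPM in N/N and 121 ± 11.2 CPM in J/J (log2 difference 0.11, adjusted p = 0.715).

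Levels of cell type markers are given beside these values. All 11 of 11 markers of cortical glutamatergic neurons had a log2 difference below 0, and their summed level was 519 to 1576 CPM in N/N and 999.8 to 1916 CPM in J/J, with no marker at 0 and none at an unadjusted p under 0.05. All 13 of 13 markers of medium spiny neurons, the principal cells of striatum, lay above 0, and summed to 4710 to 8515 CPM in N/N and 3759 to 7263 CPM in J/J, with 1 of them at an unadjusted p under 0.05. Above 0 lay also 10 of 10 astrocyte, 12 of 12 oligodendrocyte and 10 of 10 microglia markers, with an unadjusted p under 0.05 for 0, 0 and 2 of them. Of 8 tested choroid plexus and ependymal markers 7 lay above 0 and 3 had an unadjusted p under 0.05, and their sum was 14.3 to 50.9 CPM in N/N and 14.8 to 22.1 CPM in J/J. Mt2 correlated with the mean of these markers at r = 0.656 (permutation p = 0.0355, adjusted p = 0.347), which was 0.245 without the 2 mice of most extreme Mt2, and with microglia markers at 0.534 (adjusted p = 0.364). With sequencing depth Mt2 correlated at r = -0.633 (permutation p = 0.0487, adjusted p = 0.364), which was -0.675 without the same 2 mice. N/N mice 11 and 12, the highest in Mt2 within their own groups, were the highest of all in the choroid and ependymal mean (1.33 and 1.75 log2 CPM). The part of those markers or of depth in the Mt2 difference was not tested.

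With the mean cortical marker level added to the model the log2 difference of Mt2 was 0.13 (unadjusted p = 0.0883) and that of Pdk4 0.19 (unadjusted p = 0.00474, adjusted p = 0.806). That of Fkbp5 was then 0.03 (unadjusted p = 0.555) and that of Zbtb16 -0.04 (unadjusted p = 0.703). In bulk tissue fewer cells of a type and less RNA per cell cannot be told apart.

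Among the remaining targets, Zbtb16 ran from 8.20 over 12.1 to 17.2 CPM in N/N and from 12.2 over 13.6 to 17.1 CPM in J/J. Below all J/J mice lay 4 N/N mice and above them all 1, with a log2 difference of -0.21 (SE 0.123, adjusted p = 0.730). Without N/N female mouse 4, the mouse at 17.2 CPM and the most deeply sequenced, it was -0.32 (unadjusted p = 0.0049, adjusted p = 0.253), and with the cortical marker level in the model it was -0.04. Without mouse 4 an unadjusted p under 0.05 was reached by 4 members, Fkbp5 (log2 difference 0.14, adjusted p = 0.334, against 0.03 with the cortical term) among them. Sgk1 (log2 difference 0.10, SE 0.177), Tsc22d3 (0.06, SE 0.117), Sult1a1 (-0.05, SE 0.129) and Cdkn1a (-0.04, SE 0.137) overlapped broadly between the genotypes, with adjusted p-values from 0.903 to 0.957. For Sgk1 the 95% interval of the ratio, 0.824 to 1.39, was the widest of the 10. Its log2 difference depended on 1 library, being 0.28 (SE 0.120, unadjusted p = 0.0366, adjusted p = 0.705) without J/J female mouse 7 and 0.03 to 0.15 under all other settings.

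**Figure D2:**
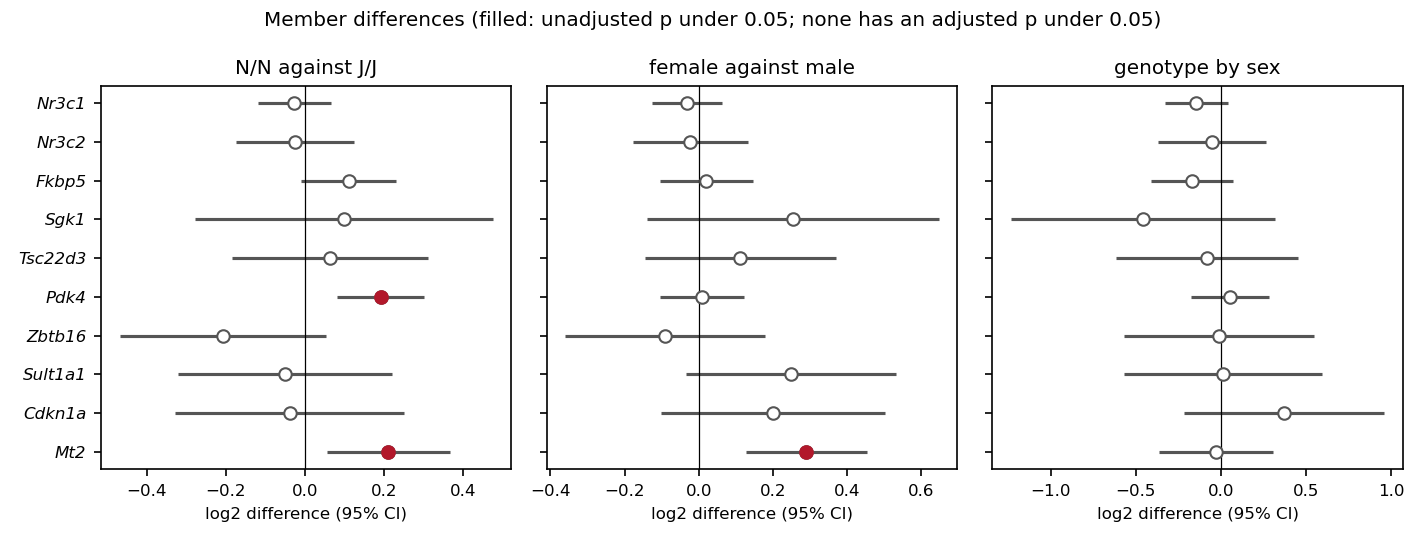
Log2 difference (horizontal axis) of each member with its 95% confidence interval for N/N against J/J, females against males and their interaction. Pdk4 and Mt2 in the first panel and Mt2 in the second are filled, for an unadjusted p under 0.05, and no member has an adjusted p under 0.05.

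The sexes were compared with genotype in the model. An adjusted p under 0.05 was reached by 9 genes (0.0559% of those tested) and an unadjusted one by 797 (4.95%). No member passed the first, and 1 of 10, Mt2, the second. Mt2 ran from 57.0 over 68.7 to 93.3 CPM in the 10 females and from 50.0 over 55.2 to 69.9 CPM in the 6 males. The ranges overlapped, since 2 N/N males, mice 9 and 12, stood above the lowest female. The means were 69.5 ± 10.3 CPM (SD, n = 10) in females and 56.9 ± 6.94 CPM (SD, n = 6) in males, a ratio of 1.22 (1.09 to 1.37, log2 difference 0.29, SE 0.077, unadjusted p = 0.00151, adjusted p = 0.785).

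Sult1a1 had 8.32 ± 1.80 CPM in females and 7.01 ± 0.856 CPM in males (log2 difference 0.25, SE 0.134, adjusted p = 0.942). Sgk1 had 80.5 ± 25.4 and 67.8 ± 12.7 CPM (0.25, SE 0.185, adjusted p = 0.942), where the female spread includes the single highest mouse. Nr3c1, Nr3c2, Fkbp5 and Pdk4 had ratios of females to males between 0.978 and 1.01. For the interaction of genotype with sex edgeR called 0 genes at an adjusted p under 0.05 (0.00%) and 1118 at an unadjusted one (6.94%), DESeq2 1 and limma-voom 0 at the adjusted threshold. No member had an unadjusted p under 0.05 there. Cdkn1a had 17.0 ± 4.32 CPM in N/N and 15.9 ± 2.99 CPM in J/J females, and 12.98 ± 0.943 and 15.7 ± 1.44 CPM in the males. Its interaction was 0.37 (SE 0.276, adjusted p = 0.720).

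The next question was whether the members went up and down together from mouse to mouse. For this the mean of each of the 4 genotype and sex groups was removed from log2 CPM, and the remaining deviations were correlated over the 16 mice, with permutation within the groups and adjustment over the 45 pairs. Sgk1 with Tsc22d3 was the 1 pair of 45 with an adjusted p under 0.05. Over all members the median r was -0.06 and 17 of 45 pairs were above 0 (37.8%), against a median of 0.00 (-0.003) and 49.6% over all pairs of tested genes. An absolute r over 0.6 was seen in 5 member pairs (11.1%), against 8.17% of all pairs.

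Sgk1 and Tsc22d3 had r = 0.821 (permutation p = 0.00042, adjusted p = 0.0189) and Spearman's rho = 0.812 (permutation p = 0.00074, adjusted p = 0.0333). Deviations of the 2 genes had the same sign in 11 of 16 mice. J/J female mouse 7 had the highest value of both, 139 CPM of Sgk1 and 70.6 CPM of Tsc22d3. N/N female mouse 13 came next in both, with 106 and 69.9 CPM. Tsc22d3 was also high in N/N male mouse 12 (67.6 CPM, with 87.6 CPM of Sgk1) and J/J female mouse 16 (64.5 CPM, with 82.0 CPM). Lowest in Sgk1 against their own group were J/J female mouse 10, with 55.7 CPM of Sgk1 and 45.9 CPM of Tsc22d3, and N/N female mouse 14, with 63.0 and 47.1 CPM. High and low mice thus occurred in both genotypes.

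Leaving out the 2 mice with the most extreme Sgk1 left r at 0.714. The call was lost without mouse 7 (r = 0.780, adjusted p = 0.099), without mouse 12 (r = 0.855, adjusted p = 0.054) and without mouse 16 (r = 0.850, adjusted p = 0.0653). It was kept when Sgk1 was taken from some runs and Tsc22d3 from others (r = 0.835, adjusted p = 0.0158), so that the pair shared no reads of 1 run. Sgk1 correlated with the mean level of endothelial markers at r = 0.148, of oligodendrocyte markers at 0.159, of mural markers at 0.354, of astrocyte markers at 0.309, of cortical markers at -0.06 and with sequencing depth at -0.083. Tsc22d3 correlated with astrocyte markers at 0.528 and with medium spiny neuron markers at -0.481. Mouse 13 was highest of all mice in the astrocyte (7.91 log2 CPM), microglia (5.89) and meningeal (4.20) means, whereas mouse 7 stood at 7.47, 5.48 and 2.69. None of the 170 relations of a member with a list mean or depth had an adjusted p under 0.05 (smallest 0.238). The smallest permutation p among them, 0.00206, was that of Nr3c1 with endothelial markers (r = -0.828, and -0.831 without the 2 mice of most extreme Nr3c1).

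**Figure D3:**
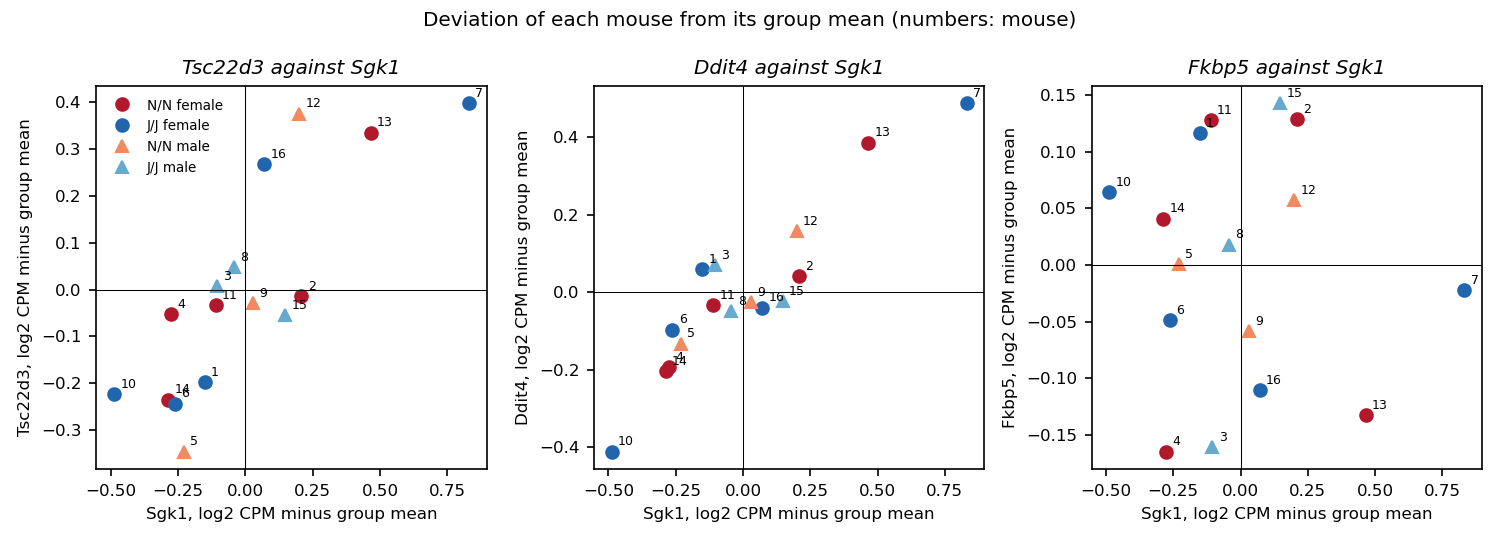
Deviation of each mouse's log2 CPM from its group mean, Sgk1 on the horizontal axis against Tsc22d3, Ddit4 and Fkbp5 on the vertical axes, 1 numbered point a mouse. Mice 7 and 13 are high for Sgk1, Tsc22d3 and Ddit4, and the Fkbp5 deviations show no order along Sgk1 (r = -0.06).

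Other pairs had sizeable coefficients that did not pass the adjustment. Zbtb16 and Sult1a1 had r = 0.670 (permutation p = 0.00533, adjusted p = 0.120), and the pair passed without J/J female mouse 1 (r = 0.733, adjusted p = 0.0439) and without N/N female mouse 13 (r = 0.688, adjusted p = 0.0405). Under the other settings it did not, with r down to 0.490 (adjusted p = 0.467) when the group means were kept and 0.592 (adjusted p = 0.331) with the cortical marker level removed. Nr3c2 and Fkbp5 had r = 0.708 (permutation p = 0.0114, adjusted p = 0.171). Fkbp5 and Zbtb16 ran opposite ways, with r = -0.656 (permutation p = 0.0188, adjusted p = 0.212). With the cortical marker level removed from both that coefficient was -0.313. Beside it stands the correlation of Zbtb16 with the cortical markers, r = 0.822, and of Fkbp5 with the medium spiny neuron markers, r = 0.712 (adjusted p = 0.238 and 0.347). Cdkn1a and Mt2 had r = -0.609, which was -0.140 without the 2 mice of most extreme Cdkn1a.

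**Figure D4:**
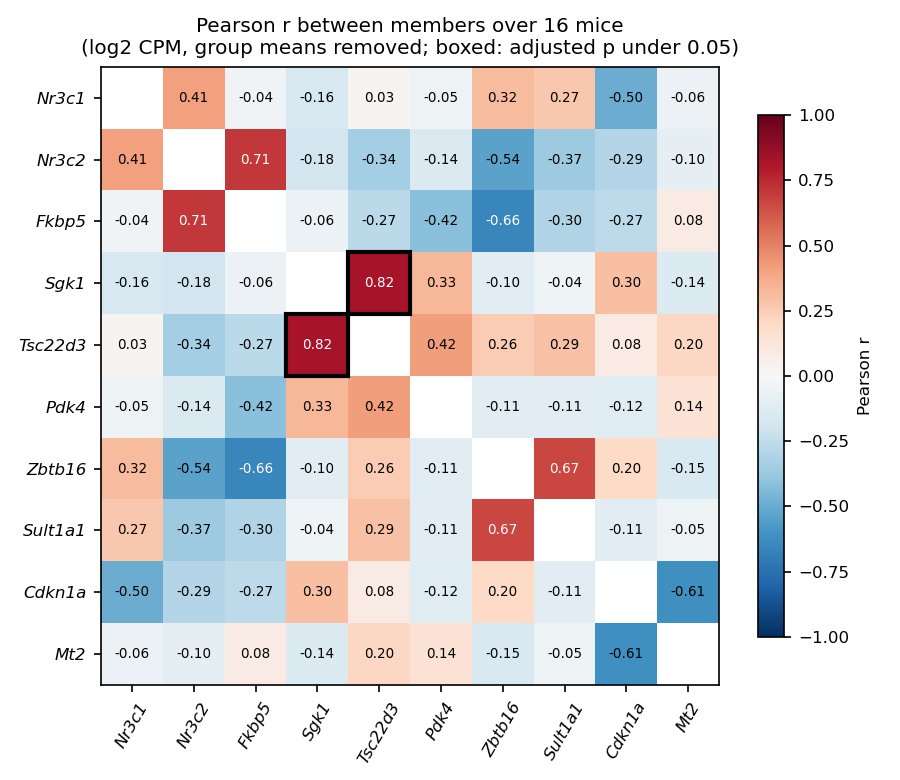
Pearson r between every 2 members over 16 mice, on log2 CPM with the group means removed, from blue (-1) to red (1). The boxed pair Sgk1 and Tsc22d3 (0.82) is the 1 pair with an adjusted p under 0.05, and most other cells are pale.

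Of 11238 named genes with at least 5 CPM, those most like Sgk1 across the mice were Ddit4 (r = 0.925), Txnip (0.899) and Nfkbia (0.872), with Tsc22d3 at rank 9. Ddit4 encodes a stress-induced inhibitor of mTORC1, Txnip a thioredoxin-binding protein that limits glucose uptake, and Nfkbia the inhibitor of NF-kappaB. All 3 are on a list of 36 other genes known as raised by glucocorticoids, of which 34 were tested. That list was chosen with earlier results of these data known, so a place on it is given as a description only. Ddit4 reached 52.2 CPM in mouse 13 and 47.3 CPM in mouse 7 and was lowest in mouse 10 at 25.4 CPM, and the same mice mark the ends of Sgk1 in deviations from the group mean. Most like Tsc22d3 were Klf15 (r = 0.903), a Krüppel-like transcription factor from the same list, Klhdc5 (0.901) and Plekho2 (0.892), with Sgk1 at rank 5. Most like Fkbp5 were Maneal (r = 0.888), Slc38a10 (0.874) and Kcng1 (0.861), none of them from the list, and Nr3c2 stood at rank 172.

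Across the list of 34 other glucocorticoid-raised genes the members differed by degrees. With Sgk1 the median r was 0.321, and 13 of 34 lay in the highest 5% of all tested genes (r over 0.444). With Tsc22d3 the median r was 0.424, and again 13 of 34 lay in the highest 5% (r over 0.501). With Fkbp5 the median r was -0.152, and 2 of 34, Klf9 and Cyp7b1, lay in its highest 5%. The medians over all tested genes were -0.006, 0.004 and -0.026. Pdk4 had a median of 0.125 with the list and 3 of 34 in its highest 5%. Cdkn1a had 0.300 and 4 of 34, Sult1a1 0.108 and 2, Zbtb16 0.101 and 0, and Mt2 -0.062 and 3. Lowest were the receptors, with -0.228 and 0 of 34 for Nr3c1 and -0.263 and 1 for Nr3c2. Cdkn1a correlated with the mean of the 34 at r = 0.571, which was 0.153 without the 2 mice of most extreme Cdkn1a. Immediate early genes are markers of recent neuronal activity, and their list shares a gene with that of the 34. Of 14 such genes 0 lay in the highest 5% for Sgk1 or Tsc22d3, and 3 for Cdkn1a (median r 0.602). Of 10 astrocyte markers 4 lay there for Tsc22d3 (median r 0.353) and 0 for Sgk1 (0.258). Of 6 tested genes that make, break down or export corticosteroids, 3 lay there for Tsc22d3 (0.367) and 4 for Sgk1 (0.457). For Fkbp5, 10 of 13 medium spiny neuron markers did (median r 0.670). The mean of the 6 corticosteroid genes correlated with Sgk1 at r = 0.587, which was 0.049 without the 2 mice of most extreme Sgk1. With Tsc22d3 it correlated at 0.636, which was 0.633 without the 2 mice of most extreme Tsc22d3. These coefficients come from the same 16 libraries and describe them. The lists were chosen with earlier results of these data known, and no test was made over the counts in the highest 5%. With the mean of the 34 genes Sgk1 correlated at r = 0.686 (permutation p = 0.0119, adjusted p = 0.329). Tsc22d3 did so at r = 0.786 (permutation p = 0.00559, adjusted p = 0.238), and neither passed the adjustment.

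**Figure D5:**
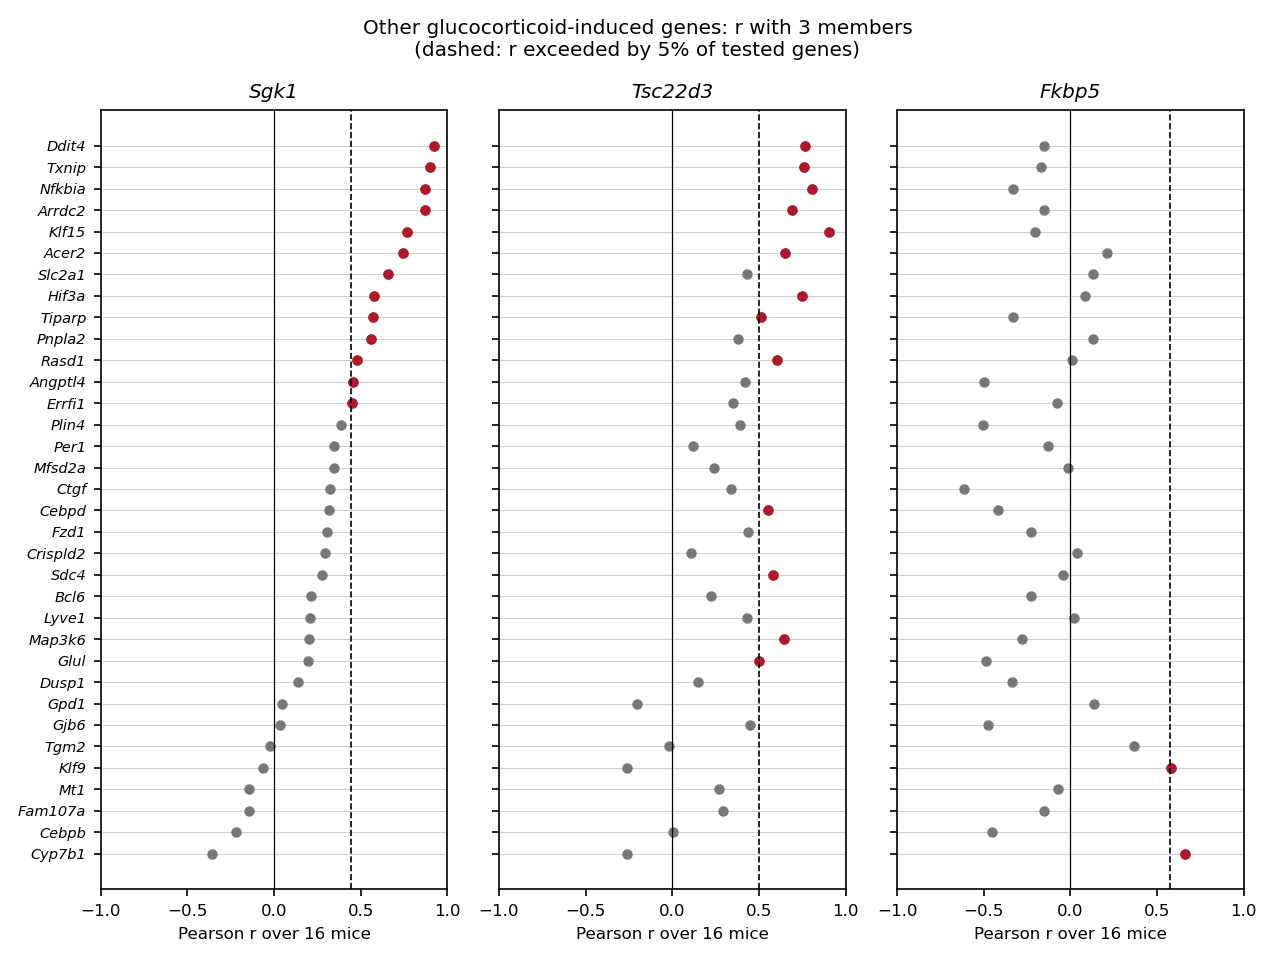
Pearson r over 16 mice (horizontal axis) of 34 other glucocorticoid-raised genes with Sgk1, Tsc22d3 and Fkbp5, group means removed, with the dashed line at the r that 5% of tested genes exceed. Beyond the line lie 13 genes for Sgk1, 13 for Tsc22d3 and 2 for Fkbp5.

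The same lists were read for genotype. Of the 34 other targets, 0 passed the adjusted threshold and 2 had an unadjusted p under 0.05, against 6.80% of all genes. These were Tiparp, a PARP-family repressor of the aryl hydrocarbon receptor (27.6 ± 3.47 CPM in N/N against 23.1 ± 4.56 CPM in J/J, log2 difference 0.25, SE 0.1102, adjusted p = 0.712), and Sdc4, a cell surface proteoglycan (64.9 ± 9.72 and 57.8 ± 3.84 CPM, 0.17, SE 0.074, adjusted p = 0.712). A log2 difference above 0 was found for 28 of the 34 (median 0.10), against 50.9% of all tested genes (median 0.0017). Marker lists of cell types and of activity stood as high, with 13 of 13 medium spiny neuron markers (median 0.22), 12 of 12 oligodendrocyte markers (0.17), 10 of 10 astrocyte markers (0.10) and 12 of 14 immediate early genes (0.26) above 0.

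Genes that hold the receptors or act with them were read in the same way. Of 10 receptor chaperones and of 10 coregulators none had an unadjusted p under 0.05 for genotype. Smallest were those of Fkbp4, the co-chaperone that opposes Fkbp5 (log2 difference 0.06, adjusted p = 0.773), and of Smarca4, the ATPase of the SWI/SNF remodeller (0.07, adjusted p = 0.769). Among 6 tested genes that make, break down or export corticosteroids, Abcb1b, an exporter of the P-glycoprotein type, had 3.28 ± 0.407 CPM in N/N and 3.87 ± 0.596 CPM in J/J (log2 difference -0.25, SE 0.101, unadjusted p = 0.0244, adjusted p = 0.712). None of 5 genes of the corticotropin-releasing hormone system had an unadjusted p under 0.05 (smallest for its receptor Crhr1, log2 difference -0.21, adjusted p = 0.715). The same held for 4 other steroid receptors, of which the progesterone receptor Pgr had the smallest p (-0.12, adjusted p = 0.712).

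The libraries held 27405386 to 51334152 reads in genes per mouse, and scaling factors lay between 0.970 and 1.02. Sex-linked transcripts matched the labelled sex in 16 of 16 mice, and markers of striatal medium spiny neurons were detected in every mouse. Mice 10 and 11 shared a cage and every other mouse was labelled with a cage of its own. The SDs and the total coefficient of variation printed here measure the spread between mice, with counting error inside it. That error was 1.49% (Nr3c1) to 6.42% (Sult1a1) of a member's mean. The biological coefficients of variation leave counting error out.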

How the data were processed

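The authors deposited whole-number read counts per gene for each of 64 runs, 4 for each of 16 mice. Per the submitters' processing notes FastQC 0.11.3, TopHat2 2.1.0, the mm10 build and HTSeq 0.6.1p1 were used, with edgeR 3.8.6 and limma 3.22.7 listed beside them. Reads were 50 bp, single-end, from a stranded mRNA kit, per the labels' protocols. The strand setting of the counting is not given in the sources used here. Rows naming no gene (19.95% no feature, 21.84% not unique and 0.78% ambiguous, as shares of gene reads plus these rows) stayed out.

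The 4 runs were summed per mouse. Genes were kept by edgeR's filterByExpr over the 4 groups, with its minimum count set to 10 and its minimum total to 15. Libraries were scaled by TMM. Genotype and sex were fitted in edgeR 4.0.16 (R 4.3.3) by the robust quasi-likelihood test, with Benjamini-Hochberg adjustment over 16113 genes. The interaction and the effects within each sex came from a model of 4 groups. The standard error of a log2 difference was derived from its F statistic. CPM and RPKM used the scaled sizes, and log2 CPM a prior count of 2. Exon lengths and positions came from GENCODE vM21. Correlations used 100000 permutations of mice within groups (two-sided), and 20000 where a mouse was left out. The fits were tested on simulated data. Precision is limited by 8 mice a genotype, and intervals are at 95%.

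The members and lists were chosen with earlier results of these data known. Named were all 10 members, up to 3 genes of each pathway list with an unadjusted p under 0.05 for genotype (otherwise the 1 with the smallest p), and the 3 genes most like Sgk1, Tsc22d3 and Fkbp5. Klf9, Cyp7b1 and Mt1 were named after their values were seen. Alternatives were other scalings, filters, tools and runs, a cortical marker term and leaving out each mouse.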

Additional observations from a re-analysis of the deposited data

How the results depend on the processing

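Of 33 other settings, some concerned only the correlations of member pairs. Over those that refitted genotype, the count of genes passing the adjusted threshold for genotype stayed at 0. That for sex lay between 8 and 11 where sex was in the model. For the interaction it was 1 without the low-count filter and 1 with DESeq2, and from 0 to 66 when 1 mouse was left out (66 without N/N female mouse 11, none of them a member). Members with an unadjusted p under 0.05 for genotype were 1 with the cortical marker level in the model and 2 to 4 when a mouse was left out. For sex they were 3 with the cortical term (Sult1a1 and Cdkn1a besides Mt2) and 1 to 2 without a mouse, and for the interaction 1 with the cortical term (Zbtb16) and 0 to 1 without a mouse (Cdkn1a without mouse 11). The cause of these changes was not tested. Pairs past the threshold were 0 to 2 and r of Sgk1 with Tsc22d3 0.780 to 0.855 when a mouse was left out. Under every other setting that pair kept its call, with r from 0.811 to 0.876. Of 270 refits of the members' genotype differences, 0 passed the adjusted threshold and 9 changed sign, none from a difference past the threshold. In 1 run alone these were Nr3c1 (0.0024) and Cdkn1a (0.010), and with the cortical term Sult1a1 (0.060) and Cdkn1a (0.14). When a mouse was left out the log2 difference ran from -0.064 to 0.024 for Nr3c2, from -0.0082 to 0.13 for Tsc22d3, from -0.12 to 0.0022 for Sult1a1 and from -0.11 to 0.036 for Cdkn1a. No paired analysis was possible because the labels number each mouse once and the genotypes share no number. With 8 mice a genotype, the intervals of the more variable members, Sgk1 above all, could not resolve differences of the size seen for Pdk4.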
